A study of Mus musculus with 12 samples.

Results

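The 10 genes compared here make, activate, store or carry long-chain, mostly polyunsaturated fatty acids, and were followed through rods and whole retina. They were Elovl4, Elovl2, Elovl5, Fads1, Fads2, Acsl6, Agpat3, Adipor1, Mfsd2a and Scd2, chosen by symbol. All 10 members were found by name among the 56748 entries of the scaled count table and the 55372 genes of the TPM table.

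Retinas came from 2-month-old mice of 2 genotypes, perfused with cycloheximide to hold ribosomes on their messages and then flash-frozen. Mice without Abca4, named Abca4Ko here and carrying RiboTag;Abca4-/-;i75-Rod-Cre, were compared with littermates labelled Abca4+/+ (RiboTag;i75-Rod-Cre). Both genotypes carried RiboTag, a tagged ribosomal protein switched on by Cre, and a Cre transgene active in rods (i75-Rod-Cre), so the controls were not plain wild-type mice. RNA bound to the tagged ribosomes of rods (rod TRAP) and RNA of the whole lysate (retina) were sequenced, with 3 libraries in each of the 4 groups. The labels do not say whether the libraries of a group came from separate animals, so the p-values measure the spread between these libraries, which may be technical.

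Docosahexaenoic acid is the main polyunsaturated fatty acid of the light-sensing discs of rods. Cells build it from dietary precursors by alternating desaturases and elongases, finish it in peroxisomes, couple it to coenzyme A and set it into phospholipids, or take it up ready-made from blood by way of the pigment epithelium. Elongation can continue beyond it, to the very-long-chain fatty acids in which photoreceptors are unusually rich.

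Read depth, recovered from the spacing of low scaled counts, was 14800000 to 23200000 reads. In 1 library, control retina replicate 3, the spacing gave no clear factor, and its deposited total stands for its depth. As a check of the labels, Abca4 in the libraries labelled Abca4Ko was 0.349%, 0.653% and 23.5% of the control mean in rod TRAP and 0.400%, 0.958% and 21.3% in retina, for replicates 1, 2 and 3. Replicate 3 of that label therefore held Abca4 message in both fractions. Summed markers of rods were 167117 to 185928 CPM, the scaled counts of a gene divided by the library's total and put on a common scale, in rod TRAP and 78793 to 117016 in retina. All 11 rod markers were called higher in rod TRAP of controls, and all 10 Müller glia markers lower. Of the 10 cone markers, 2 (Thrb and Cngb3) were called higher there and 8 lower. Of the 8 bipolar markers, 1 (Prkca) was called higher and 7 lower. Müller markers still summed to 139 to 215 CPM in rod TRAP, against 3986 to 6241 in retina, so they were lower there and not at 0. Cone markers summed to 532 to 714 CPM in rod TRAP and 1321 to 2084 in retina. Bipolar markers summed to 247 to 332 CPM in rod TRAP and 496 to 1133 in retina. Most of the rod TRAP sum was Prkca, the marker called higher there. It averaged 290 CPM of a mean sum of 301 in control rod TRAP, and 158 of 894 in control retina. The bipolar sum therefore does not show the level of the 7 markers called lower.

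In rods of control mice, the messages of Agpat3, Elovl4 and Adipor1 stood far above those of the early desaturation and elongation steps, Fads2, Fads1 and Elovl5. On the TPM scale, which divides by transcript length, the order was Agpat3, Elovl4, Adipor1, Acsl6, Elovl2, Scd2, Fads2, Fads1, Elovl5 and Mfsd2a. No 2 neighbours in this order overlapped between their 3 libraries. Agpat3 averaged 3206 ± 146 TPM (SD, n = 3) and was 24th of all genes by mean TPM. Elovl4 averaged 1097 ± 13.3 TPM and was 80th. From there the level fell to 0.70 ± 0.10 TPM for Elovl5.

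In control retina the order differed. Agpat3 again led, at 1909 ± 48.0 TPM, followed by Adipor1 at 671 ± 5.09 and Elovl4 at 325 ± 73.0. Scd2 at 146 ± 39.2 TPM came next, above Acsl6 at 82.2 ± 17.3, Fads2 at 67.6 ± 10.9 and Fads1 at 44.9 ± 5.88. Elovl2 at 34.5 ± 9.17 TPM, Elovl5 at 19.2 ± 4.82 and Mfsd2a at 1.93 ± 0.06 closed the list. The libraries of Acsl6 and Fads2, of Fads1 and Elovl2, and of Elovl2 and Elovl5 overlapped, so the order within those pairs lay inside their spread.

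**Figure D1:**
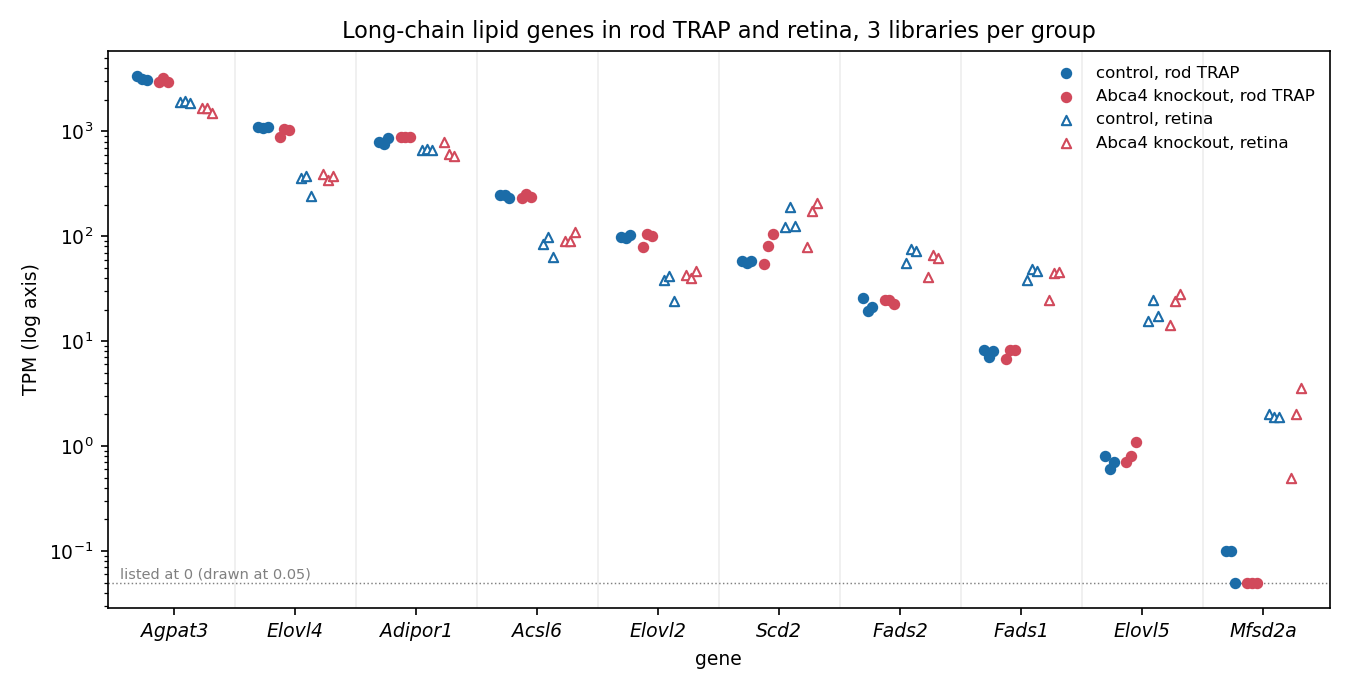
TPM of the 10 genes in each library on a log axis, with circles for rod TRAP, triangles for retina, blue for control and red for Abca4 knockout. Elovl4, Elovl2, Acsl6 and Agpat3 lie higher in rod TRAP than in retina in every library, Elovl5, Fads1, Fads2 and Mfsd2a lie lower in every library, and values listed at 0 are drawn at 0.05.

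Rods and whole retina were compared within each genotype, to ask which steps of the pathway were read by ribosomes of rods. In controls, the 5 genes Elovl4, Acsl6, Elovl2, Agpat3 and Adipor1 were called higher in rod TRAP (limma adjusted p under 0.05, with Adipor1 turning sign under the deposited scaling), and the 5 genes Elovl5, Fads1, Mfsd2a, Fads2 and Scd2 lower. Of all 16286 genes tested, 36.0% were called higher and 39.3% lower, so a call by itself does not set a gene apart, and the sizes are given for each. The median log2 fold change of the 10 genes was -0.24, against -0.05 over all genes. In Abca4Ko the same 5 genes were called higher and the same 5 lower, where 29.4% and 34.4% of 16036 genes were called. Mfsd2a passed the filter on low counts only through its retina libraries. Its call as lower therefore followed from the filter in both genotypes and does not bear on the list, and the median includes it. A higher value in retina can come from more cells of other types or from more RNA per cell, and these cannot be told apart in bulk samples. Ribosome binding, the pull-down and the RNA input (10 ng for rod TRAP, 5 ng for retina) also differed between fractions. Their part was not tested.

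The 3 elongases split. Elovl4, which extends fatty acids to very long chains, measured 1096, 1084 and 1111 TPM in control rod TRAP and 361, 373 and 241 in control retina. Its fractions did not overlap, and the log2 fold change of rod TRAP over retina was 2.09 (SE 0.14, limma adjusted p = 3.64e-08), a 4.25-fold difference. In controls, 6.71% of genes tested were shifted as far toward rods. In Abca4Ko the log2 fold change of Elovl4 was 1.63 (SE 0.19). The same share in controls was 6.84% for Acsl6, 8.96% for Elovl2, 18.9% for Agpat3 and 30.3% for Adipor1. On the lower side it was 4.65% for Elovl5, 14.6% for Fads1, 15.1% for Mfsd2a, 24.7% for Fads2 and 27.6% for Scd2. Mfsd2a was near 0 in rod TRAP, so its fitted fold and its place here rest on the pseudocount added to CPM. By CPM alone its level in control retina was 43.4 times that in control rod TRAP.

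Elovl2, which lengthens the precursors of docosahexaenoic acid, measured 98.9, 96.9 and 102 TPM in control rod TRAP and 38.0, 41.4 and 24.1 in control retina. The log2 fold change was 1.85 (SE 0.16, limma adjusted p = 2.78e-07) in controls and 1.34 (SE 0.16) in Abca4Ko. Elovl4 was 11.0 ± 0.16 times Elovl2 by TPM in control rod TRAP and 9.49 ± 0.49 times in control retina, and the ranges did not overlap.

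Elovl5, which acts on shorter polyunsaturated chains, ran the other way. It was listed at 0.8, 0.6 and 0.7 TPM in control rod TRAP and at 15.7, 24.7 and 17.2 in control retina. The scaled counts behind those rod values were 18, 14 and 19. The log2 fold change was -3.95 (SE 0.18, limma adjusted p = 1.71e-09) in controls, 15.5-fold lower in rod TRAP, and -4.07 (SE 0.21) in Abca4Ko. That lies in the range of the Müller glia markers, which ran from -6.10 to -3.37 with a median of -4.30 in controls. It also lies in the ranges of the bipolar, amacrine, horizontal, ganglion, microglial, vascular and pigment epithelium markers. The medians were -3.86 for amacrine and -3.80 for microglial markers, so the value does not single out a cell type. Elovl4 exceeded Elovl5 by 1588 ± 218 times in TPM in control rod TRAP and by 17.4 ± 4.91 times in control retina. The rod ratio is coarse, since TPM is listed to 0.1.

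The windows of 250 bases before the annotated start of Elovl4 and Elovl2, the 2 elongases higher in rods, are shown with those of Elovl5 and Fads2, which were lower. They are from RefSeq on GRCm38.p6, an older build than the GRCm39 named in the submitters' processing notes, are written along the gene's strand, and start with the base farthest from the gene. Capitals mark the CCAAT box, the GC box GGGCGG and the E-box CACGTG, each on either strand.
Elovl4, chr9:83806306-83806555, minus strand: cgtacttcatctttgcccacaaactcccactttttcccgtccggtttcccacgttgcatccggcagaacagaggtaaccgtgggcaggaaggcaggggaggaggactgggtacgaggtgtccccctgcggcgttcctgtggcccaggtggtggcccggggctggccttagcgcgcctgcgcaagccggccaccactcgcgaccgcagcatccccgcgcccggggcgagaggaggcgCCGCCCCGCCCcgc
Elovl2, chr13:41220404-41220653, minus strand: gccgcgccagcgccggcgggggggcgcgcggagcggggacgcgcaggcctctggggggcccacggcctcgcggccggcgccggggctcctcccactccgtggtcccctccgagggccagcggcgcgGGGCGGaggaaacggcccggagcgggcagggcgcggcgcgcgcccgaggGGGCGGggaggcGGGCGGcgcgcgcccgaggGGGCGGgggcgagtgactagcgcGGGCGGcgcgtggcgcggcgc
Elovl5, chr9:77917115-77917364, plus strand: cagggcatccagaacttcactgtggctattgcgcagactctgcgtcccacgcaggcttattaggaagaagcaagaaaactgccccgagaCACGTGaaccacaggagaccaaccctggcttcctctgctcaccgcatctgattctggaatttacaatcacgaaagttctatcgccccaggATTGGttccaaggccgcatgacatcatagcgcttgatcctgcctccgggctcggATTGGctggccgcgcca
Fads2, chr19:10101504-10101753, minus strand: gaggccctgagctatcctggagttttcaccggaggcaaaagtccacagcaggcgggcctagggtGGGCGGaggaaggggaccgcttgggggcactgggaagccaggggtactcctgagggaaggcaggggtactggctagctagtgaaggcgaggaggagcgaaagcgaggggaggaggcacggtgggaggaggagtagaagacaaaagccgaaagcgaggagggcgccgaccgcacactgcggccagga

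GC content of the windows was 69.6% for Elovl4, 87.2% for the Elovl2 window shown, 55.6% for Elovl5 and 64.8% for Fads2. The Elovl2 window shown held 5 copies of GGGCGG and the Elovl4 window 2 overlapping copies of CCGCCC, its reverse complement. Elovl2 has another window, chr13:41220163-41220412, with a GC content of 79.6% and none of the 5 motifs searched. Over the 12 windows of the 8 genes with an entry, GGGCGG was in 8, against 32.7% of 32851 windows of all genes. Those 8 were windows of Acsl6, Adipor1, Elovl4, Elovl2 and Fads2, with more than 1 each from Acsl6 and Adipor1. Windows of the same gene are not separate observations, so the 8 of 12 is not a count of genes. CCAAT was in 5 of the 12 and in 33.8% of all, with 2 copies in Elovl5. CACGTG was in 1 of the 12, that of Elovl5, with its first base 161 bases before the start, and in 6.02% of all. TAATCC, the core bound by the photoreceptor factor CRX, was in 0 of the 12 and in 6.25% of all, and TCACNCCAC, a sterol response element, was in 0 of the 12 and in 1.05% of all. Both strands were searched in each case, and a match of letters is a description of the window only.

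The desaturases were lower in rods. Fads2, which performs the desaturation that opens the pathway, measured 25.7, 19.2 and 21.2 TPM in control rod TRAP and 55.2, 75.6 and 72.1 in control retina. Its log2 fold change was -1.25 (SE 0.15, limma adjusted p = 5.88e-06) in controls and -0.97 (SE 0.15) in Abca4Ko. Fads1, the desaturase that acts after the next elongation, measured 8.3, 7.0 and 8.0 TPM in control rod TRAP and 38.2, 49.3 and 47.1 in control retina. Its log2 fold change was -2.22 (SE 0.13, limma adjusted p = 1.63e-08) and -2.00 (SE 0.16) in Abca4Ko. Both genes lie on chromosome 19 with Scd2, and neither overlapped between fractions. The ratio of Fads2 to Fads1 TPM was 2.83 ± 0.24 in control rod TRAP and 1.50 ± 0.05 in control retina.

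Scd2, a stearoyl-CoA desaturase that makes monounsaturated fatty acids, measured 58.0, 56.2 and 57.6 TPM in control rod TRAP and 123, 192 and 124 in control retina. The log2 fold change was -1.06 (SE 0.12, limma adjusted p = 5.67e-06). In Abca4Ko the fractions overlapped, at 54.9, 80.4 and 105 TPM in rod TRAP against 79.6, 174 and 207 in retina. There the log2 fold change was -0.70 (SE 0.24, limma adjusted p = 0.0257). That call was lost without rod TRAP replicate 1 (adjusted p = 0.104) or 2 (0.0585), without retina replicate 2 (0.0623), and on the log2(TPM + 1) scale (0.132).

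Acsl6 and Agpat3, 1 gene each of activation and of insertion into phospholipid, were higher in rods. Acsl6, an acyl-CoA synthetase that prefers docosahexaenoic acid, measured 247, 249 and 233 TPM in control rod TRAP and 84.7, 98.1 and 63.8 in control retina. Its log2 fold change was 2.07 (SE 0.13, limma adjusted p = 1.95e-08) in controls and 1.63 (SE 0.15) in Abca4Ko, next to the values of Elovl4. Agpat3, an acyltransferase that makes phosphatidic acid and favours polyunsaturated chains, measured 3369, 3161 and 3087 TPM in control rod TRAP and 1900, 1961 and 1866 in control retina. Its log2 fold change was 1.10 (SE 0.10, limma adjusted p = 7.10e-07) in controls and 1.13 (SE 0.22) in Abca4Ko. That is near the median of the rod markers, 1.33, which ranged from 0.86 to 3.95 in controls.

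The 2 genes of supply differed. Mfsd2a, the transporter of lysophosphatidylcholine that carries docosahexaenoic acid, had scaled counts of 1, 2 and 0 in control rod TRAP and 48, 43 and 45 in control retina. The retina CPM was 43.4 times the rod level (95% exact interval 14.5 to 213, counting error only). In Abca4Ko it had 0 counts in all 3 rod TRAP libraries and 14, 46 and 52 in retina, at least 35.7-fold higher in retina against a floor of 3 counts over the group. Even in control retina it averaged only 1.93 ± 0.06 TPM.

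Adipor1, the adiponectin receptor that photoreceptors need to keep docosahexaenoic acid, measured 789, 753 and 869 TPM in control rod TRAP and 666, 676 and 670 in control retina. The log2 fold change was 0.57 (SE 0.12, limma adjusted p = 7.38e-04) in controls and 0.66 (SE 0.25, limma adjusted p = 0.0381) in Abca4Ko. This direction rests on the scaling. Under the deposited scaling alone it was -0.058 (adjusted p = 0.598) in controls and 0.15 (adjusted p = 0.486) in Abca4Ko. That scaling moved the median over all genes from -0.05 to -0.62 in controls and from -0.02 to -0.49 in Abca4Ko, so Adipor1 lay above the median gene under both. It also turned the split of all called genes in controls from 5861 higher and 6400 lower to 3415 higher and 9549 lower. The other 9 genes kept their direction and call under it. The Abca4Ko call was also lost under median-of-ratios scaling (0.0550), without any 1 of the 3 rod TRAP libraries (0.0704 to 0.110), without retina replicate 2 (0.310) or 3 (0.348), and without replicate 3 in both fractions (0.415).

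**Figure D2:**
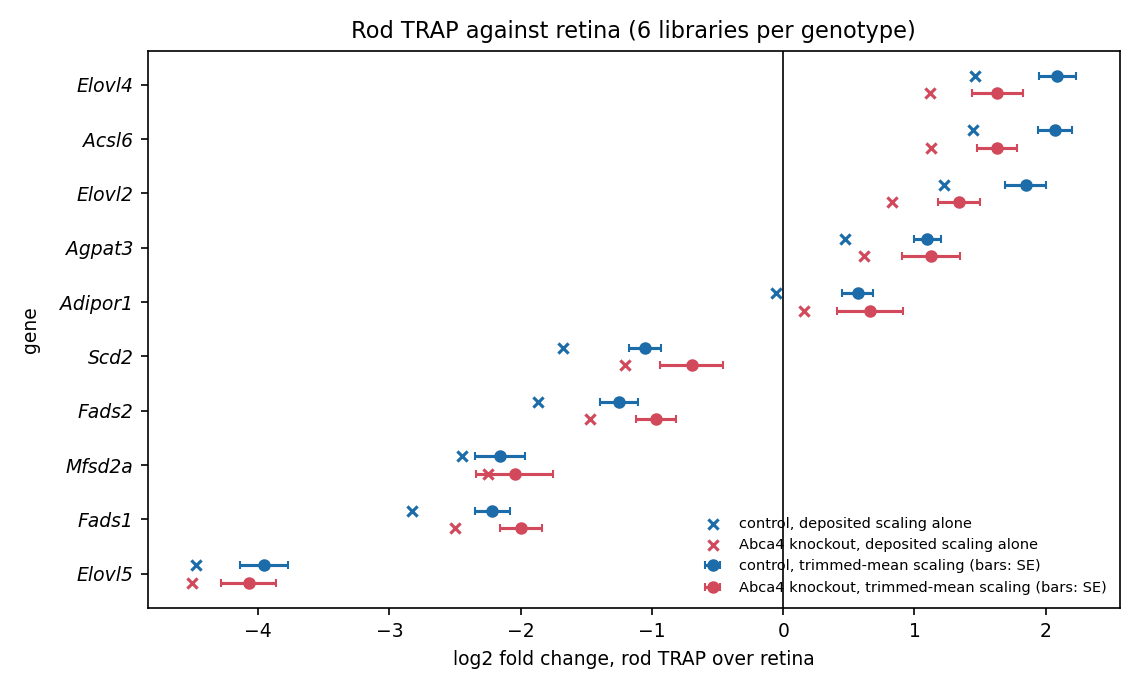
Log2 fold change of rod TRAP over retina for each gene, with circles and SE bars for the trimmed-mean scaling and crosses for the deposited scaling alone, blue for control and red for Abca4 knockout. The genes run from Elovl4 at 2.09 to Elovl5 at -3.95 in controls, and Adipor1 is the gene whose sign turns with the scaling, in controls.

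Which paralog carried a family's message was then compared, as a share of the family's summed TPM, over the 6 rod TRAP and 6 retina libraries. A share needs no scaling between libraries. Elovl4 made up 91.1% ± 0.417 (SD, n = 6) of the TPM of Elovl1 to Elovl7 in rod TRAP and 82.5% ± 2.04 in retina, a difference of 8.61 points. Acsl6 made up 55.2% ± 1.43 of the long-chain acyl-CoA synthetases in rod TRAP and 42.4% ± 4.10 in retina, a difference of 12.8 points. Agpat3 made up 95.6% ± 0.393 of Agpat1 to Agpat5 in rod TRAP and 92.9% ± 1.09 in retina, a difference of 2.66 points.

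Fads2 showed the largest of the 5 differences, at 71.7% ± 2.35 of Fads1, Fads2, Fads3 and Fads6 in rod TRAP and 52.0% ± 1.77 in retina, or 19.7 points. So Fads2 was lower in rods yet a larger part of the summed TPM of Fads1, Fads2, Fads3 and Fads6 there. Scd2, also a desaturase, was not in this sum. For each of these 4 shares the fractions did not overlap in any library. A two-sided exact permutation test gave p = 0.00216 for each, the smallest it can give (0.00271 adjusted over 5 shares). It shuffled the libraries as independent, although same-numbered rod TRAP and retina libraries deviated together, so this p may overstate the evidence. For sign flips within same-numbered pairs the smallest possible p is 0.03125. Within 1 genotype of 3 against 3 libraries the smallest p is 0.1, and the differences there ran from 8.54 to 8.68 points for Elovl4, 9.52 to 16.1 for Acsl6, 2.36 to 2.97 for Agpat3 and 19.1 to 20.4 for Fads2. Scd2 made up 92.8% ± 1.54 of Scd1 to Scd4 in rod TRAP and 91.3% ± 1.56 in retina, and its difference of 1.51 points did not pass (exact permutation p = 0.141). It did pass with shares of scaled counts, at 2.05 points, and without control rod TRAP replicate 3, at 2.01 points.

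**Figure D3:**
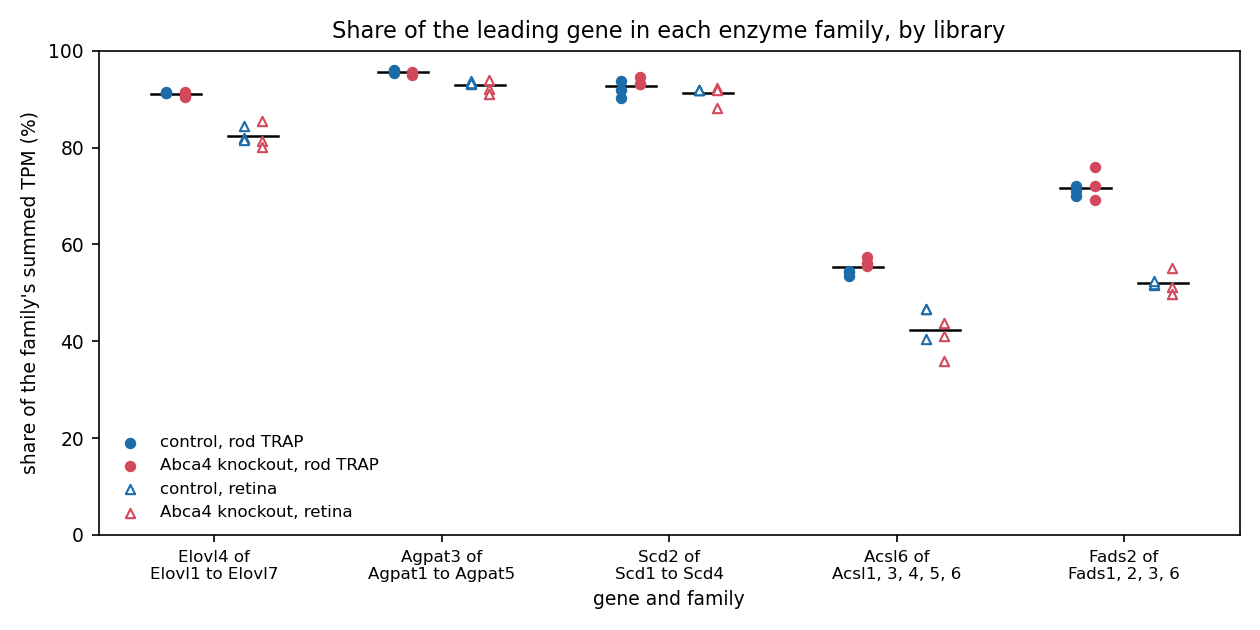
Share of each leading gene in the summed TPM of its enzyme family, in percent, by library, with circles for rod TRAP, triangles for retina, blue for control, red for Abca4 knockout and a black line at the mean of 6 libraries. Rod TRAP lies above retina in every library for Elovl4, Agpat3, Acsl6 and Fads2, and the fractions overlap for Scd2.

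The other elongases were low in rods. Elovl1, Elovl6 and Elovl7 averaged 1.73 ± 0.49, 2.0 ± 0.17 and 0.33 ± 0.32 TPM in control rod TRAP, and Elovl3 was listed at 0 in all 12 libraries. Among the synthetases, Acsl3 averaged 113 ± 2.48 and Acsl1 82.8 ± 4.75 TPM in control rod TRAP, below Acsl6 at 243 ± 9.00. Agpat5, the next acyltransferase after Agpat3, averaged 117 ± 3.52 TPM. Fads3 and Fads6 averaged 0.90 ± 0.52 and 0.30 ± 0.17 TPM there, against 11.0 ± 2.40 and 6.7 ± 1.71 in control retina.

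The rest of the pathway was read through 66 further genes. In controls, 18 of the 59 tested were called higher in rod TRAP, 31 lower and 10 neither, where 36.0% of all genes tested were called higher and 39.3% lower. In Abca4Ko these counts were 17, 25 and 17 of 59, where 29.4% and 34.4% were called. Of the genes called lower, 12 in controls and 11 in Abca4Ko had passed the filter on low counts only through their retina libraries, so their calls followed from the filter and do not bear on the list. By role in controls, the other desaturation genes had 0 higher and 6 lower of 7 (1 of the 6, Fads6, passed only through retina), and the uptake, binding and receptor genes 0 higher and 5 lower of 7 (4 of the 5, Cd36, Cdh13, Fabp3 and Mfrp). The elongation cycle had 2 higher and 6 lower of 9 (3 of the 6), and the acyltransferases 5 higher and 9 lower of 15 (4 of the 9). The peroxisomal step had 5 higher and 1 lower of 7, the acyl-CoA synthetases 3 higher and 2 lower of 6, and the transcription factors 3 higher and 2 lower of 8, and all of these passed in rod TRAP as well.

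The largest rises among these genes in controls were Acsl4, a synthetase that prefers arachidonic acid, at 2.29 (SE 0.15), Lclat1, a lysocardiolipin acyltransferase, at 1.76 (SE 0.17), and Abcd2, a peroxisomal fatty acid transporter, at 1.71 (SE 0.21). In Abca4Ko they were Acsl4 at 1.49 (SE 0.20), Agpat5 at 1.26 (SE 0.15) and Acsl1 at 1.12 (SE 0.15). These are log2 fold changes of rod TRAP over retina with limma adjusted p under 0.05. The most negative fitted values belonged to genes near 0 in rods, which passed the filter only through retina, so their fold and order rest on the pseudocount and their levels are given instead. In controls they were Mfrp, a membrane protein of the pigment epithelium, at 0.37 ± 0.15 TPM in rod TRAP and 15.9 ± 7.71 in retina, Cdh13, an adiponectin-binding cadherin, at 0.20 ± 0.20 and 5.9 ± 0.62, and Fabp3, a fatty acid binding protein, at 0.50 ± 0.10 and 57.7 ± 7.02. In Abca4Ko they were Fabp3 at 0.53 ± 0.29 and 51.7 ± 8.69 TPM, Lpcat4, a lysophospholipid acyltransferase, at 0.40 ± 0.40 and 13.4 ± 5.66, and Cdh13 at 0.20 ± 0.10 and 7.37 ± 2.65.

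The retina libraries varied among themselves, and these genes varied with them. Retina replicate 1 labelled Abca4Ko was the lowest of the 6 retina libraries for Scd2, Fads2, Fads1, Elovl5 and Mfsd2a, the genes lower in rods. Its CPM lay 0.74, 0.43, 0.60, 0.37 and 1.56 log2 units below the mean of the 6. It was the highest for Elovl4, Elovl2, Agpat3 and Adipor1, by 0.32, 0.28, 0.13 and 0.40 log2 units. The same library held the highest rod marker sum, 117016 CPM, and the lowest sums for cones, bipolar, amacrine, horizontal, ganglion, microglial, vascular and pigment epithelium markers. Its amacrine sum was 502 CPM, for example, against 677 to 1085 in the other 5. The part of this makeup in the values of the genes was not tested.

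Control retina replicate 3 was the lowest of the 6 for Elovl4, Acsl6 and Elovl2, by 0.48, 0.49 and 0.64 log2 units, while its rod marker sum lay 0.16 above the mean. Its pigment epithelium sum was the highest, at 483 CPM against 84.1 to 276 in the others.

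**Figure D4:**
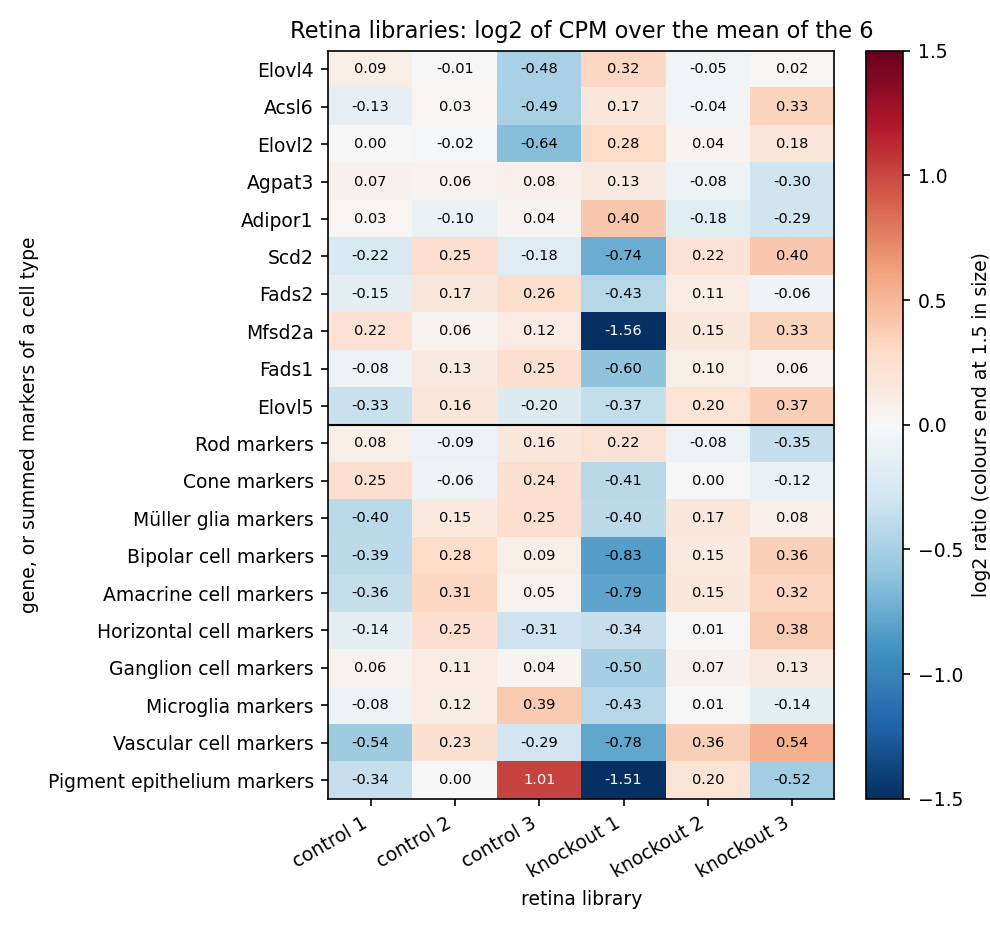
Log2 of CPM over the mean of the 6 retina libraries, for the 10 genes (above the line) and for summed markers of 10 cell types (below it), with red above and blue below the mean. The column of knockout replicate 1 is blue for Scd2, Fads2, Mfsd2a, Fads1 and Elovl5 and for every cell type but rods.

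The genotypes were then compared to ask whether loss of ABCA4, the transporter that clears retinal from discs, went with a change in these genes. In rod TRAP, 0 of the 9 genes tested were called, where 147 of 13104 genes (1.12%) were, and 1 gene, Scd2, had an unadjusted p under 0.05. Mfsd2a was too low to test. Intervals were narrow for the genes high in rods. The log2 fold change of Abca4Ko over control was -0.10 for Elovl4 (95% interval -0.27 to 0.07), -0.01 for Elovl2 (-0.17 to 0.16), 0.03 for Acsl6 (-0.13 to 0.19), 0.00 for Agpat3 (-0.19 to 0.20) and 0.21 for Adipor1 (-0.02 to 0.43). It was 0.16 for Elovl5 (-0.30 to 0.62), 0.09 for Fads1 (-0.16 to 0.34) and 0.18 for Fads2 (-0.12 to 0.48). On the trimmed-mean scale of the fit, for 3 of the 9 every Abca4Ko library lay on one side of every control library: Elovl4 (lower in Abca4Ko), Fads1 (higher) and Scd2 (higher), where 17.5% of all genes tested were separated in this way. By CPM, without that scaling, Adipor1 was separated too (higher in Abca4Ko) and Fads1 was not. The share of all genes separated by CPM was not computed, so no background stands beside it.

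Scd2 was the gene with the largest difference in rods. It had 2644, 2685 and 2633 scaled counts in control rod TRAP and 2908, 3818 and 4637 in the libraries labelled Abca4Ko. The controls lay close together and all 3 Abca4Ko libraries lay above them, far apart from each other. The log2 fold change was 0.50 (SE 0.12, 95% interval 0.23 to 0.76), which did not pass over all genes (limma adjusted p = 0.0986). It passed without rod TRAP replicate 1 of Abca4Ko, the library closest to the controls (log2 fold change 0.63, adjusted p = 7.35e-06), and with no filter on low counts (adjusted p = 0.0367). Leaving out the library closest to the controls raises the difference by itself. Scd2 passed in no other alternative run. Over all of them its log2 fold change ran from 0.36 to 0.63, and the limma adjusted p reached 0.705. The highest value was that of replicate 3, in which Abca4 was at 23.5% of control.

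Cone marker levels are set beside Scd2. They summed to 609, 535 and 532 CPM in control rod TRAP and to 558, 714 and 707 in Abca4Ko. Of the 10 cone markers, 1 was called higher in Abca4Ko, where 1.12% of all genes tested were called in either direction. It was Gngt2, a transducin subunit of cones named after its value was seen. Of these markers, 8 had an unadjusted p under 0.05, where 10.4% of all genes tested did. The median log2 fold change of the 10 was 0.40, while the sums of the genotypes overlapped. In those sums, Gnb3 and Thrb, at log2 fold changes of -0.12 and 0.03, averaged 143 and 117 of 559 CPM in controls. Müller marker sums were 143 to 161 CPM in controls and 139 to 215 in Abca4Ko. The part of these cells in the Scd2 values was not tested.

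In retina, 0 of the 10 genes were called, where 19 of 16964 (0.112%) were, and 0 had an unadjusted p under 0.05. On the trimmed-mean scale the genotypes overlapped for all 10, where 19.7% of all genes tested did not overlap. By CPM, Elovl2 was separated, at 95.2, 93.8 and 61.1 in control retina and 115, 97.5 and 107 in Abca4Ko. The share of all genes separated by CPM was not computed, so this describes the values only. The log2 fold changes ran from -0.35 for Mfsd2a (95% interval -1.09 to 0.38) to 0.39 for Elovl2 (-0.07 to 0.85). Elovl4 stood at 0.25 (-0.25 to 0.74), Acsl6 at 0.36 (-0.05 to 0.77) and Scd2 at 0.02 (-0.51 to 0.56). The intervals of Elovl2, Elovl4, Acsl6 and Scd2 were wider than in rod TRAP.

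The difference between fractions was also compared between genotypes, in 1 fit of all 12 libraries. None of the 10 genes was called, where 1 of 17273 genes (0.00579%) was, and 0 of the 10 had an unadjusted p under 0.05. The values ran from -0.41 for Elovl2 (95% interval -0.91 to 0.10, limma adjusted p = 0.526) to 0.46 for Scd2 (-0.15 to 1.07, limma adjusted p = 0.552). Of the 66 further pathway genes, 0 of 50 were called between genotypes in rod TRAP, 0 of 59 in retina and 0 of 59 in the interaction, with 5, 4 and 7 at an unadjusted p under 0.05. Over all genes tested, 10.4%, 11.9% and 11.3% had such a p.

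**Figure D5:**
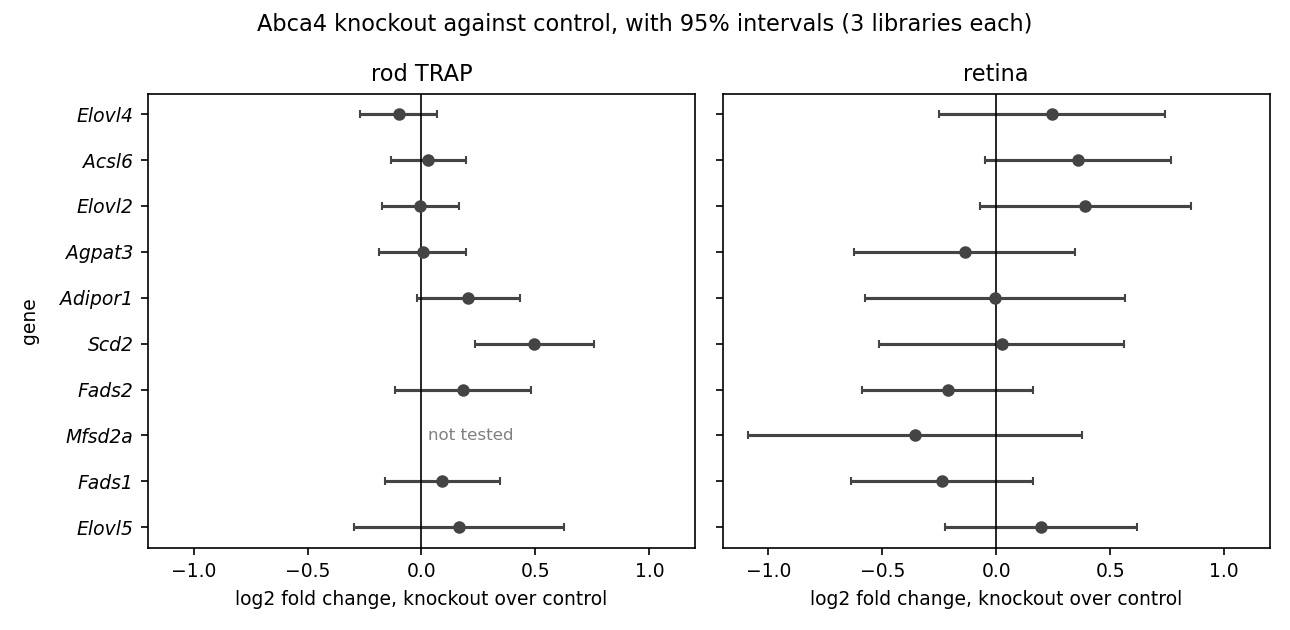
Log2 fold change of Abca4 knockout over control for each gene, in rod TRAP (left) and retina (right), with bars for the 95% interval from 3 against 3 libraries. Scd2 in rod TRAP, at 0.50, is the gene whose interval lies clear of 0, and the intervals in retina are wider for all but Elovl5.

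The genes whose levels ran most like each member's across the 12 libraries were listed by Pearson's r of log2(CPM + 0.5) over 17264 genes, as a description only. All 12 libraries share the contrast of rod TRAP with retina, and 2342 genes reached an r over 0.95 with Elovl4. The nearest to Elovl4 was Fbxl5 (r = 0.998), to Elovl2 Hook3 (0.998), to Elovl5 Pfn2 (0.998), to Fads1 Tgfb1i1 (0.999), to Fads2 Ache (0.994) and to Acsl6 Top2b (0.999). The nearest to Agpat3 was Ndrg3 (0.997). Adipor1 and Scd2 stood more alone, with 68 and 9 genes over 0.95, led by Osbp2 (0.980) and Slc38a1 (0.979). Mfsd2a ran most like Kcnh1 (0.994).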

How the data were processed

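The 12 RNA-seq libraries were grouped by GEO's labels. Per the submitters' processing notes, CASAVA 1.8.2, HISAT2, DESeq2, edgeR and GRCm39 were used upstream. The authors deposited a table of scaled counts, a score made by scaling read counts to nearly equal totals within a fraction and rounding them. Count models were therefore not used for the fits. The exact interval of Mfsd2a is the exception. It is binomial and treats the scaled counts, summed over the 3 libraries of a group, as counts. The authors also deposited TPM to 1 decimal, a length-scaled share that keeps no depth.

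Trimmed means of M values (trims 0.3 and 0.05) set the library scaling, and genes were fitted as log2(CPM + 0.5) with limma 3.58.1 (trend, robust) in R 4.3.3. Genes needed at least 10 scaled counts in at least 3 libraries of a fit. Tests were two-sided, with Benjamini-Hochberg adjustment over all genes tested and a threshold of 0.05. The fit was tested on simulated data. Fold changes on this scale understate those of low genes. CPM printed for single libraries is relative to the deposited total. Shares were tested by exact permutation in scipy 1.17.1, with rod TRAP and retina of 1 number among the 6 of each side. Same-numbered libraries were not kept as pairs in that test.

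Same-numbered rod TRAP and retina libraries deviated together from their group means in every pair (r = 0.143 to 0.556 over 11738 genes). In controls r was only 0.143 to 0.158. Same-numbered libraries of different genotypes ran from -0.512 to 0.322. Differently numbered libraries were not compared, so whether the numbers pair the fractions was not tested. Adding the replicate block changed the call of none of the 10 genes between fractions.

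All 10 genes are named in every comparison, and of the pathway list the 3 called genes with the largest rise and fall. The genes and lists were chosen with earlier results of these data known. Promoter windows were found for 8 of the 10 genes, those other than Fads1 and Scd2. 1 gene that the rule on similar levels selects is not reported here.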

Additional observations from a re-analysis of the deposited data

How the results depend on the processing

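Among genes compared between fractions, the direction of all 10 held under every alternative run but 1, the deposited scaling for Adipor1 in controls (-0.058). The added fit without Abca4Ko replicate 3 in both fractions, chosen after seeing the data, called 5566 genes against 10229, and leaving out 1 library gave 6097 to 9786. Without any 1 of the control retina libraries, Mfsd2a fell below the filter and has no value.

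Between genotypes, small values changed sign and none of those was called. In rod TRAP, Acsl6 came to -0.017 with log2(TPM + 1) and to -0.000107 with 1 fit of 12 libraries, and Agpat3 to -0.072 and -0.026 there and to -0.0052 under the deposited scaling. Leaving out 1 library gave -0.035 to 0.022 for Elovl2 and -0.050 to 0.068 for Agpat3. In retina, Scd2 came to -0.010 with log2(TPM + 1), and leaving out 1 library gave -0.33 to 0.020 for Agpat3, -0.30 to 0.18 for Adipor1, -0.58 to 0.035 for Mfsd2a and -0.15 to 0.29 for Scd2. The cause was not tested.

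Genes called in rod TRAP were 147, against 58 with log2(TPM + 1), 96 with 1 fit of 12 libraries and 28 to 598 without 1 library. Of the 10 genes, 1 (Scd2) was called with no filter, and 0 to 1 without 1 library. Genes called in retina were 19, against 12 under the deposited scaling, 33 with no filter, 38 with log2(TPM + 1), 63 with 1 fit of 12 libraries, and 1 to 16 without 1 library. With the replicate block, 33 were called in retina and 146 in rod TRAP. Same-numbered libraries of the genotypes did not deviate together throughout (r = -0.512 to 0.322). In the interaction, log2(TPM + 1) gave 3 genes against 1.

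Shares in 1 genotype alone could not pass: for controls and Abca4Ko the points were 8.68 and 8.54 for Elovl4, 9.52 and 16.1 for Acsl6, 2.36 and 2.97 for Agpat3, and 19.1 and 20.4 for Fads2. The Scd2 share passed with scaled counts (2.05 points), and leaving out 1 library gave 0.87 to 2.01 points. Depth limits Elovl5 and Mfsd2a most, at 14 to 24 and 0 to 2 scaled counts a library in rod TRAP.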
